A study of Arabidopsis thaliana with 6 samples.

Results

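Transcript levels of 10 circadian clock genes were compared in Arabidopsis thaliana seedlings: the pseudo-response regulator genes TOC1 (AT5G61380), PRR3 (AT5G60100), PRR5 (AT5G24470), PRR7 (AT5G02810) and PRR9 (AT2G46790), the evening complex genes ELF3 (AT2G25930), ELF4 (AT2G40080), LUX (AT3G46640) and BOA (AT5G59570), and GI (AT1G22770). They were chosen by locus identifier, and all 10 were present among the 26984 nuclear protein-coding genes of the deposited tables. These genes and the other gene lists below were chosen with earlier results of these data known. Shares of called genes set beside those of all tested genes are therefore descriptions only. The data are 3 RNA-seq libraries of the hy5-215 mutant (numbered hy5 4, 5 and 6) and 3 libraries of the Columbia wild type (Col_0 1, 2 and 3). Both genotypes were seedlings of 7 days, raised under short days and taken at zeitgeber time 20 h, that is, hours after dawn, which falls in the night. hy5-215 is a mutant allele of HY5, the gene of a bZIP factor needed for normal seedling growth in light. Levels are FPKM, fragment counts scaled by gene length and by library total. A single time was sampled, so a difference in level at that time and a difference in the timing of a daily rhythm cannot be told apart. In RNA from seedlings as a bulk, fewer cells that express a gene and less RNA per cell cannot be told apart either.

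The plant clock is a network of transcription factors that largely repress one another. PRR proteins appear one after another through the day, with PRR9 early and TOC1 in the evening, and repress the morning genes CCA1 and LHY. The evening complex, in which ELF3 is the scaffold, ELF4 a small partner and LUX or its paralog BOA the DNA-binding subunit, represses other clock genes and the growth factors PIF4 and PIF5 in the night. GI is a large protein that stabilises the F-box protein ZTL and acts with FKF1 in day-length sensing.

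At zeitgeber time 20 h, PRR5, PRR7, LUX and BOA were higher and ELF4 was lower in hy5 than in Col_0. TOC1, ELF3 and PRR3 did not pass the test, and GI and PRR9 lay below the expression filter. GI was nonetheless higher in each hy5 library than in each Col_0 library, at 0.848 ± 0.0521 FPKM in hy5 and 0.259 ± 0.0490 FPKM in Col_0 (SD, n = 3 each). The test was limma on log2(FPKM + 1) over the 17205 genes that reached 1 FPKM in at least 3 libraries, with Benjamini-Hochberg adjustment over all of them and a threshold of 0.05. Of the 8 clock genes tested, 4 were called higher in hy5, against 11.7% of all tested genes, and 1 was called lower, against 11.1%. In either direction, 22.8% of all tested genes were called. The hy5 libraries lay wholly above the Col_0 libraries for 5 of the 8 (PRR3, PRR5, PRR7, LUX and BOA), as for 20.6% of all tested genes, and wholly below for ELF4, as for 19.5%. PRR7 passed the filter only through the hy5 libraries and PRR3 only through hy5 and Col_0 2, so their entry into the test was not independent of the difference. The other 6 tested clock genes were above 1 FPKM in every library, and of these 3 were called higher (PRR5, LUX and BOA) and 1 lower (ELF4), the same genes whose libraries did not overlap. Log2 fold changes are hy5 over Col_0 on the log2(FPKM + 1) scale, which understates the change of low genes, so ratios of mean FPKM are given as well.

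**Figure D1:**
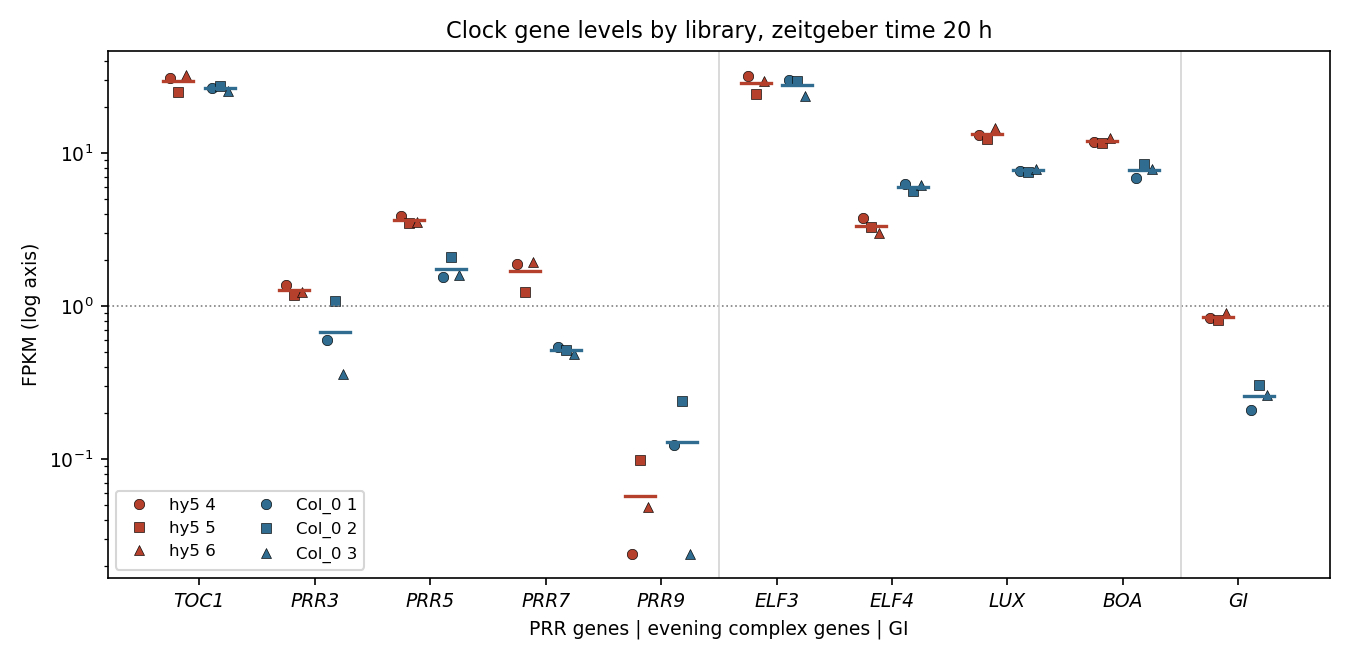
FPKM of the 10 clock genes (log axis) in each library, with hy5 libraries in red and Col_0 libraries in blue, short bars for the mean of 3 libraries and a dotted line at 1 FPKM. LUX, BOA, PRR5, PRR7, PRR3 and GI are higher and ELF4 is lower in all 3 hy5 libraries than in all 3 Col_0 libraries, while TOC1, ELF3 and PRR9 overlap.

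HY5 itself was lower in the mutant, at 1.88 to 3.04 FPKM in hy5 and 12.99 to 13.9 FPKM in Col_0, and so was its homolog HYH, at 2.08 to 3.49 FPKM in hy5 and 23.3 to 26.3 FPKM in Col_0. Across tested genes, log2 values of paired libraries had Pearson correlations of 0.957 to 0.972 for hy5 with Col_0 and of 0.983 to 0.994 within a genotype, genes not being independent replicates. Without hy5 4 or hy5 6, the number of genes called higher in hy5 over the whole table was 1043 or 952, against 2010 with all libraries, and the number called lower was 1158 or 1076, against 1905. Marker lists showed that the libraries held both shoot and root tissue, with none of 4 photosynthetic and none of 6 root markers at 0 in any library. The photosynthetic markers summed to 16836 to 20617 FPKM in hy5 and to 19408 to 24148 FPKM in Col_0, and none of the 4 was called. The 6 root markers summed to 109 to 114 FPKM in hy5 and to 45.1 to 103 FPKM in Col_0. CASP1 and MYB36, genes of the root endodermis, and the iron transporter gene IRT1 were called higher in hy5, although IRT1 missed the threshold when hy5 4 (limma adjusted p = 0.121), hy5 5 (0.0588), hy5 6 (0.0943) or Col_0 1 (0.0942) was left out, under the 3 rescalings (0.0504 to 0.0652) and with a pseudocount of 0.1 (0.0516). The root hair genes EXPA7 and COBL9 and the phosphate transporter gene PHT1;1 did not pass. The 13 seed storage and oil body genes summed to 4.83 to 16.7 FPKM in hy5 and to 54.5 to 336 FPKM in Col_0, the highest being Col_0 2. Of these, up to 5 were at 0 in a hy5 library and none was at 0 in a Col_0 library. Summed levels of 4 dark and starvation genes (320 to 588 FPKM in hy5, 223 to 303 FPKM in Col_0) and of 3 heat shock genes (20.6 to 22.5 FPKM in hy5, 12.99 to 15.0 FPKM in Col_0) also stood apart, with 2 of the 4 (ASN1 and GDH2) and 2 of the 3 (HSP70 and HSP90.1) called higher. ASN1 missed the threshold when hy5 4 (limma adjusted p = 0.0947), Col_0 1 (0.0685) or Col_0 2 (0.0766) was left out, and HSP90.1 when hy5 4 (0.062) or hy5 6 (0.0638) was. The part of these lists in the clock gene differences was not tested. Without Col_0 2, which had the lowest root and the highest seed sum, the log2 fold changes were 0.70 for LUX, 0.64 for BOA, 0.85 for PRR5, 0.82 for PRR7 and -0.74 for ELF4, and these 5 genes were called. Without that library the marker sums still separated the genotypes, at 109 to 114 FPKM in hy5 and 72.6 and 103 FPKM in Col_0 for root, and at 4.83 to 16.7 FPKM in hy5 and 54.5 and 128 FPKM in Col_0 for seed genes.

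Among the PRR genes, TOC1 was by far the most abundant and did not differ beyond the spread. TOC1, also called PRR1, is the evening member of the family and a repressor of CCA1 and LHY. It lies on the plus strand of chromosome 5 (chr5:24674963-24678550, RefSeq annotation of TAIR10.1) with 6 merged exons. Its level was 31.0, 25.3 and 32.6 FPKM in hy5 4, 5 and 6, against 26.6, 27.3 and 25.6 FPKM in Col_0 1, 2 and 3. The groups overlapped, because hy5 5 lay below every Col_0 library while hy5 4 and 6 lay above. The log2 fold change was 0.15 with a 95% interval of -0.07 to 0.37 (limma adjusted p = 0.327).

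PRR5 and PRR7 rose. PRR5, a repressor expressed around the middle to the end of the day, lies on the minus strand (chr5:8356204-8358546) with 6 merged exons. It stood at 3.85, 3.48 and 3.57 FPKM in hy5 4, 5 and 6, against 1.55, 2.08 and 1.601 FPKM in Col_0 1, 2 and 3. The hy5 libraries were close together and all above Col_0 2, the highest of the wild type. The ratio of means was 2.08 and the log2 fold change 0.76 ± 0.14 (SE; limma adjusted p = 0.00167). PRR7, a daytime repressor of CCA1 and LHY that acts with PRR9, lies on the minus strand (chr5:637681-642030) with 8 merged exons. Its level was 1.88, 1.24 and 1.94 FPKM in hy5 4, 5 and 6, against 0.541, 0.515 and 0.486 FPKM in Col_0 1, 2 and 3. No Col_0 library reached 1 FPKM, the Col_0 values were nearly equal, and hy5 5 was the lowest of the mutant. The ratio of means was 3.28, matched among the 10 genes only by that of GI, and the log2 fold change 0.82 ± 0.15 (SE; limma adjusted p = 0.00186). The fold change of PRR7 depended on the constant added before the logarithm, being 1.52 with 0.1 and 0.28 with 5, and PRR7 was called with both. Leaving out any hy5 library took PRR7 below the filter, so that it then had no test.

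PRR3 and PRR9 gave no call. PRR3, which in biochemical work binds TOC1 and shields it from ZTL, lies on the minus strand (chr5:24197971-24201415) with 8 merged exons. It stood at 1.38, 1.179 and 1.23 FPKM in hy5 4, 5 and 6, against 0.602, 1.08 and 0.361 FPKM in Col_0 1, 2 and 3. The groups did not overlap, but Col_0 2 came close to hy5 5 and the Col_0 libraries were 0.681 ± 0.365 FPKM (SD, n = 3). The log2 fold change was 0.45 with a 95% interval of 0.09 to 0.81 and did not pass after adjustment (limma adjusted p = 0.0672), while it passed without Col_0 2 (0.0185). PRR9, the earliest of the daytime PRR genes, lies on the plus strand of chromosome 2 (chr2:19232607-19235179). Its level was 0.0239, 0.0987 and 0.0486 FPKM in hy5 4, 5 and 6, against 0.124, 0.237 and 0.0240 FPKM in Col_0 1, 2 and 3. The groups overlapped at the lower edge of what the tables list, and an exact two-sided permutation test of the means gave p = 0.3, where 0.1 is the smallest that 3 against 3 allows. PRR9 was also the only one of the 10 genes with a large duplicated stretch: 779 of its 1895 exonic words of 50 bases (41.1%) occurred elsewhere in the genome, 733 of them in AT2G46670, a CCT motif gene listed at 0 in all 6 libraries. Its level is uncertain for that reason.

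The bases just upstream of 3 PRR genes are shown because motifs known from the clock and from HY5 binding lie there in different sets. Each sequence is the 250 bases before the annotated start, 5′ to 3′ on the gene's strand, from RefSeq TAIR10.1, and capitals mark matches on either strand to 7 motifs: the evening element AAAATATCT, the CCA1-binding site AAAAATCT, the G-box CACGTG, the C-box GACGTC, their hybrid GACGTG, and the LUX-binding sites GATACG and GATTCG. The evening element and the CCA1-binding site are bound by the morning MYB factors. G-boxes, C-boxes and hybrids hold the ACGT core that HY5 binds. In the 250 bases, no match overlapped another.
PRR5 (chr5:8358547-8358796, minus strand): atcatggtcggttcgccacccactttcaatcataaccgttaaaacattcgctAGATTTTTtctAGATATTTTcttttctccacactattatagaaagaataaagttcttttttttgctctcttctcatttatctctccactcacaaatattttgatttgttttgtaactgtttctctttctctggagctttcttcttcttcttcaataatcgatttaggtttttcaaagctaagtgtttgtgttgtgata
PRR7 (chr5:642031-642280, minus strand): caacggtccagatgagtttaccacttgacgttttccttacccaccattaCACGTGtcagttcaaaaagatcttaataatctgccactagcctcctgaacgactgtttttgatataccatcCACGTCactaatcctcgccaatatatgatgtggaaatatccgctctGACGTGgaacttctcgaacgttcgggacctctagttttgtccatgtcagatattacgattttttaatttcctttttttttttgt
TOC1 (chr5:24674713-24674962, plus strand): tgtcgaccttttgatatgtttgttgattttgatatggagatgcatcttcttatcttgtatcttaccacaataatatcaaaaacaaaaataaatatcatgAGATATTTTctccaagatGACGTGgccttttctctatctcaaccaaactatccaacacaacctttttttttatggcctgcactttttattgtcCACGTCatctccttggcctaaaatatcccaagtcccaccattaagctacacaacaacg
PRR5 held a CCA1-binding site whose first base lay 198 bases before the start and an evening element at 187 bases. It held none of the ACGT motifs in this window, but a hybrid lay further out, at 311 bases. PRR7 held a G-box at 201 bases and hybrids at 130 and 84 bases, and no evening element. TOC1, which was not called, held an evening element at 151 bases and hybrids at 133 and 58 bases. These matches are descriptions of the letters and not evidence of binding.

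Within the evening complex, the DNA-binding subunits and ELF4 moved in opposite directions while the scaffold gene ELF3 gave no call. ELF3 lies on the plus strand of chromosome 2 (chr2:11058944-11063324) with 4 merged exons and encodes the scaffold that links light signalling to the clock. It stood at 31.9, 24.5 and 29.8 FPKM in hy5 4, 5 and 6, against 30.3, 29.5 and 23.7 FPKM in Col_0 1, 2 and 3. The ranges coincided almost entirely, with hy5 5 and Col_0 3 the low library of each genotype. The log2 fold change was 0.04 with a 95% interval of -0.21 to 0.30 (limma adjusted p = 0.835), and its sign turned without hy5 4 (-0.036) or Col_0 3 (-0.065).

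ELF4, a small protein that promotes the activity of the complex, lies on the minus strand of chromosome 2 (chr2:16734294-16734953) in 1 exon. Its level was 3.75, 3.27 and 3.02 FPKM in hy5 4, 5 and 6, against 6.27, 5.65 and 6.18 FPKM in Col_0 1, 2 and 3. Every hy5 library was well below every Col_0 library, and ELF4 was the only one of the 8 tested genes called lower. The ratio of means was 0.555 and the log2 fold change -0.70 ± 0.13 (SE; limma adjusted p = 0.00172). The related genes ELF4-L1 to ELF4-L4, of which 3 were tested (ELF4-L2, ELF4-L3 and ELF4-L4), gave no call. The nearest to one were ELF4-L2 at 15.5 ± 2.49 FPKM in hy5 and 11.7 ± 1.99 FPKM in Col_0 (limma adjusted p = 0.066; n = 3 each, SD), which passed when hy5 5 or Col_0 3 was left out, and ELF4-L3 at 1.45 ± 0.105 FPKM in hy5 and 2.11 ± 0.125 FPKM in Col_0 (limma adjusted p = 0.0811). ELF4-L1 stood at 0.931 ± 0.232 FPKM in hy5 and 0.816 ± 0.143 FPKM in Col_0, and the ELF3-like gene AT3G21320 at 0.167 ± 0.103 FPKM in hy5 and 0.00672 ± 0.0116 FPKM in Col_0 (SD, n = 3), both below the filter.

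LUX and BOA rose together. LUX, listed as PCL1 in RefSeq, is the GARP-type DNA-binding subunit of the complex and lies on the plus strand of chromosome 3 (chr3:17183042-17186959). It stood at 13.2, 12.3 and 14.5 FPKM in hy5 4, 5 and 6, against 7.67, 7.54 and 7.93 FPKM in Col_0 1, 2 and 3. The lowest hy5 library was clearly above the Col_0 libraries, which hardly differed from each other. The ratio of means was 1.73 and the log2 fold change 0.72 ± 0.11 (SE), with limma adjusted p = 0.000426, the smallest adjusted p of the 10 genes. BOA, also known as NOX, is its closest paralog and lies on the plus strand of chromosome 5 (chr5:24003888-24007844). Its level was 11.8, 11.7 and 12.6 FPKM in hy5 4, 5 and 6, against 6.93, 8.51 and 7.82 FPKM in Col_0 1, 2 and 3. All hy5 libraries were above Col_0 2, the highest of the wild type. The ratio of means was 1.55 and the log2 fold change 0.58 ± 0.11 (SE; limma adjusted p = 0.00256).

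**Figure D2:**
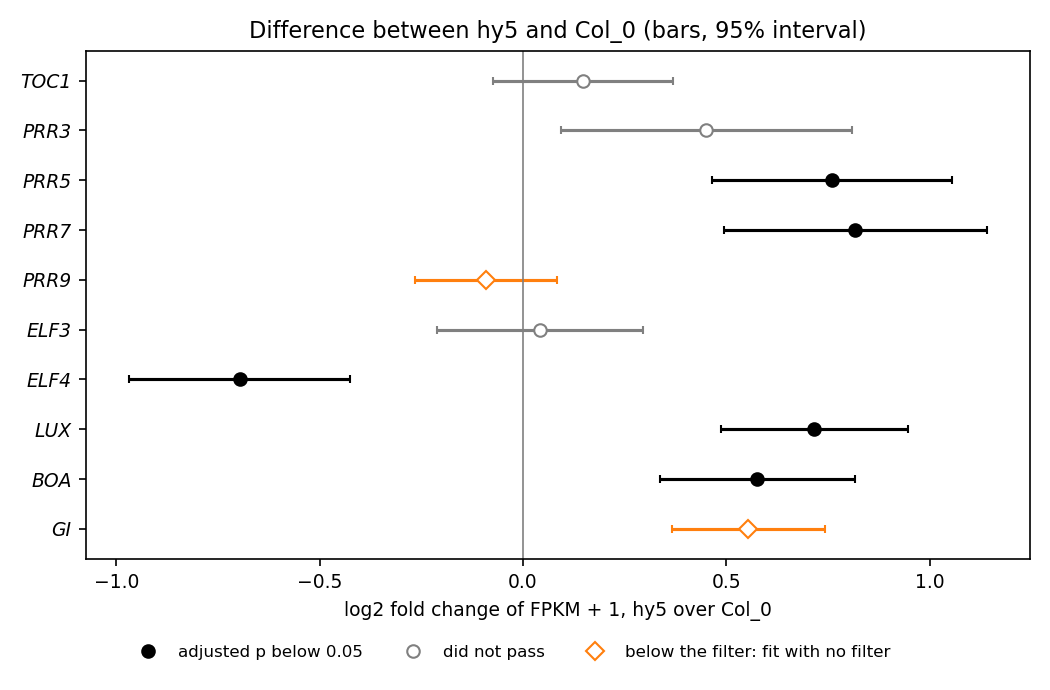
Log2 fold change of FPKM + 1, hy5 over Col_0, with 95% intervals from limma. Filled circles (PRR5, PRR7, LUX, BOA, ELF4) passed an adjusted p of 0.05, open circles did not, and diamonds (PRR9, GI) come from the fit with no filter on low values; ELF4 is the only filled point left of 0.

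The upstream bases of LUX and BOA are set side by side, because the 2 paralogs that rose carried the same 3 kinds of motif in this window. The marking is as above.
LUX (chr3:17182792-17183041, plus strand): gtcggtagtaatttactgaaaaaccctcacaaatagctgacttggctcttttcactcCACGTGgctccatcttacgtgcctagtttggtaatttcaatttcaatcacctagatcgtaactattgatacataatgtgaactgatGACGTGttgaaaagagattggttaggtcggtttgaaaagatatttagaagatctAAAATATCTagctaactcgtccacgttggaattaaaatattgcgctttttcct
BOA (chr5:24003638-24003887, plus strand): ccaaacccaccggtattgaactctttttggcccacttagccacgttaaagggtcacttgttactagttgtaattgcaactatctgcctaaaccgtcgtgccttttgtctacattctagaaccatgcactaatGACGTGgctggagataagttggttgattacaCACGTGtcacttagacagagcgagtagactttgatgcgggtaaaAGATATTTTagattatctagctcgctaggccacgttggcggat
LUX held a G-box at 193 bases, a hybrid at 107 bases and an evening element at 53 bases before its start. BOA held a hybrid at 118 bases, a G-box at 87 bases and an evening element at 43 bases. Over all 10 clock genes, 4 (TOC1, PRR5, LUX and BOA) had an evening element within 250 bases, as did 2.33% of 26983 genes with a full window, and 6 had any of the G-box, C-box and hybrid (TOC1, PRR3, PRR7, PRR9, LUX and BOA), against 13.4%. The CCA1-binding site was found within 250 bases in PRR5 alone, against 6.72%, and the C-box in none, against 2.25%. Either LUX-binding site was found within 250 bases in 3 (PRR9, ELF3 and ELF4), against 12.1%, and within 1000 bases in 8, against 39.8%. In 1000 bases the ACGT motifs occurred in 8 of the 10 (TOC1, PRR3, PRR5, PRR7, PRR9, LUX, BOA and GI), against 32.7%. The evening element occurred in that window in 6 (TOC1, PRR5, ELF4, LUX, BOA and GI), against 7.21%. The CCA1-binding site occurred there in 3 (PRR5, PRR9 and BOA), against 21.2%. Genes that rose, genes that were not called and ELF4, which was called lower, all appear among those with a match.

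Both LUX and BOA have gene models that overlap another gene on the other strand. AT3G46650, a UDP-glycosyltransferase gene, shares 698 exonic bases with LUX (17.8% of the LUX exons), and UGT76E1 shares 1679 exonic bases with BOA (45.9%). Whether the counting used strand is not given in the sources used here. AT3G46650 stood at 0.109, 0.223 and 0.136 FPKM in hy5 4, 5 and 6, against 0.221, 0.770 and 0.275 FPKM in Col_0 1, 2 and 3. UGT76E1 stood at 0.0730, 0.0503 and 0.0247 FPKM in hy5 4, 5 and 6, against 0.0501, 0.0267 and 0.0244 FPKM in Col_0 1, 2 and 3. Both overlapping genes were thus listed far below LUX and BOA in every library and their groups overlapped. Handling of shared reads is not given, so these levels cannot show how many reads from the other strand were counted in LUX or BOA. The overlaps are those of the RefSeq models, and the annotation behind the FPKM is not given. The next gene beside BOA, UGT76E2, shares 10 of the 3508 exonic words of 50 bases in BOA and was called higher, at 4.11 ± 0.690 FPKM in hy5 and 2.10 ± 0.217 FPKM in Col_0 (SD, n = 3 each; limma adjusted p = 0.0035). ELF3 shares 24 exonic bases with ALPHA-VPE and 21 with an antisense RNA. Apart from PRR9 and BOA, the exons of the 10 genes held no word of 50 bases found elsewhere in the genome.

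**Figure D3:**
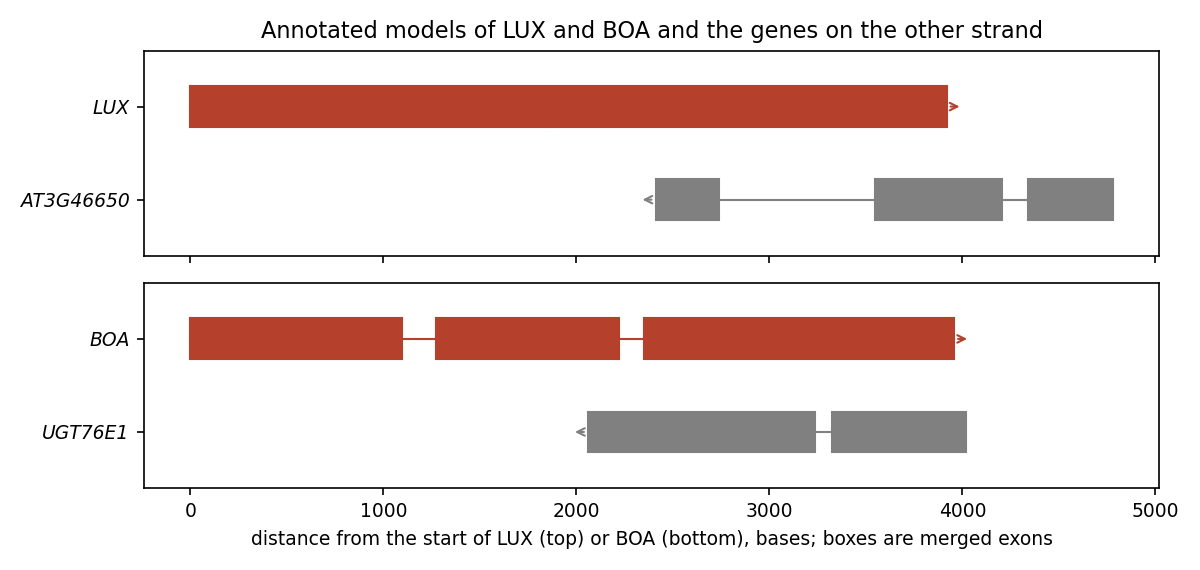
Merged exons (boxes) of LUX and BOA in red and of the genes on the other strand in grey, by distance in bases from the start of LUX or BOA; arrows give the direction of transcription. The overlap is larger for BOA (1679 exonic bases) than for LUX (698 exonic bases).

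GI was low in both genotypes and higher in the mutant. GI lies on the plus strand of chromosome 1 (chr1:8061751-8067790) with 14 merged exons, and its transcript normally peaks late in the day. It stood at 0.833, 0.805 and 0.906 FPKM in hy5 4, 5 and 6, against 0.208, 0.306 and 0.263 FPKM in Col_0 1, 2 and 3. The values were tight within each genotype and far apart between them, with a ratio of means of 3.28. Since no library reached 1 FPKM, GI was outside the main test. Among the 5211 genes above 0 that did not pass the filter, 8.5% were likewise higher in all hy5 libraries than in all Col_0 libraries, and 20.6% of the tested genes were. An exact two-sided permutation test of the means gave p = 0.1, the smallest possible with 3 against 3. In the fit with no filter, GI was called higher with a log2 fold change of 0.55 ± 0.08 (SE; limma adjusted p = 0.00329). In that fit 8.22% of 22416 genes were called higher and 16.4% were called in either direction. No evening element lay within 250 bases of its start, and 3 lay further out, at 591, 777 and 809 bases. Hybrids lay at 872 and 933 bases, and a LUX-binding site at 981 bases.

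Ordered by level, the 10 genes differed in rank between genotypes only by exchanges between neighbours. The spacing changed for ELF4, which lay closer to LUX and BOA in Col_0 than in hy5. FPKM is corrected for gene length, but the lengths used by the authors are not given, so close neighbours are uncertain. In hy5 the order was TOC1 (29.6 FPKM), ELF3 (28.7), LUX (13.3), BOA (12.02), PRR5 (3.63), ELF4 (3.35), PRR7 (1.69), PRR3 (1.26), GI (0.848) and PRR9 (0.0571). The libraries of TOC1 and ELF3 overlapped, as did those of LUX and BOA, of PRR5 and ELF4, and of PRR7 and PRR3. In Col_0 the order was ELF3 (27.8 FPKM), TOC1 (26.5), BOA (7.75), LUX (7.71), ELF4 (6.04), PRR5 (1.74), PRR3 (0.681), PRR7 (0.514), GI (0.259) and PRR9 (0.128). There the overlapping neighbours were ELF3 and TOC1, BOA and LUX, PRR3 and PRR7, and GI and PRR9. ELF4 was thus apart from PRR5 in Col_0 and level with it in hy5.

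Ratios within a library do not depend on how libraries are scaled. The ratio of ELF4 to LUX was 0.285, 0.265 and 0.208 in hy5 4, 5 and 6, against 0.818, 0.75 and 0.780 in Col_0 1, 2 and 3. Wild-type seedlings held nearly as much ELF4 as LUX by FPKM, and the mutant held several times more LUX than ELF4. The size of the ratio rests on the gene lengths used, which are not given. In the RefSeq models the merged exons span 619 bases in ELF4 and 3916 bases in LUX. On the log2 scale the difference was -1.64, from -2.00 ± 0.24 in hy5 and -0.35 ± 0.06 in Col_0 (SD, n = 3 each), and the groups did not overlap. The ratio of LUX to BOA was 1.12, 1.06 and 1.15 in hy5 4, 5 and 6, against 1.11, 0.886 and 1.01 in Col_0 1, 2 and 3. Those ranges overlapped, with a log2 difference of 0.15 (exact two-sided permutation p = 0.2), and the SD was 0.06 in hy5 and 0.16 in Col_0 (log2, n = 3 each). TOC1 to PRR5 stood at 8.04, 7.27 and 9.14 in hy5, against 17.1, 13.1 and 16.0 in Col_0, and GI to ELF3 at 0.0261, 0.0329 and 0.0305 in hy5, against 0.00687, 0.0104 and 0.0111 in Col_0. The groups were separate in both, and the exact two-sided permutation p was 0.1 for these and for ELF4 to LUX, the smallest possible with 3 against 3.

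**Figure D4:**
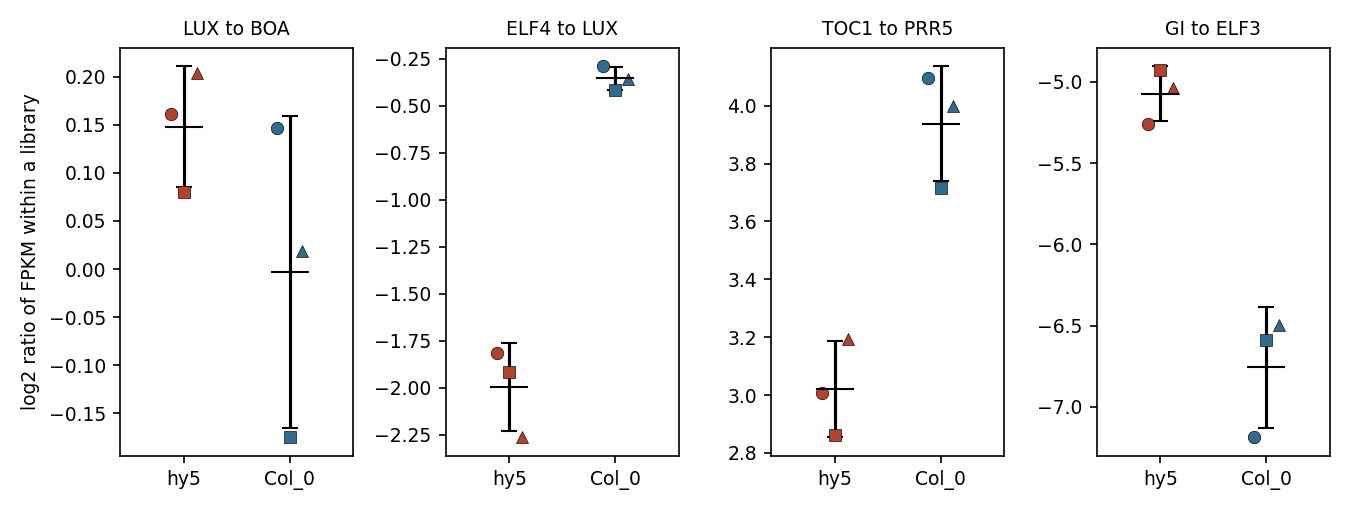
Log2 ratio of the FPKM of 2 clock genes within each library, hy5 left and Col_0 right, with the mean and SD of 3 libraries in black; each panel has its own scale. LUX to BOA overlaps between genotypes, whereas ELF4 to LUX (-2.00 in hy5, -0.35 in Col_0), TOC1 to PRR5 and GI to ELF3 do not.

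For each called clock gene, the nearest genes were sought among 5650 named genes (5649 for LUX and BOA) with a mean of at least 5 FPKM. Nearness was the root mean square difference of log2(FPKM + 1) over 6 libraries, after centring each gene on its Col_0 mean. The added 1 shrinks the changes of low genes such as PRR7 and PRR5. Their nearest genes were more abundant and had smaller ratios of mean FPKM. Both follow from the method, since both clock genes lie below the minimum of 5 FPKM set for the genes searched. Nearest to LUX were WAT1 and IAA7, both at a difference of 0.0403, and ARL (0.0421). WAT1, a vacuolar auxin transporter gene, stood at 264 ± 11.2 FPKM in hy5 and 161 ± 7.18 FPKM in Col_0, and IAA7, an auxin response repressor gene, at 110 ± 6.54 FPKM in hy5 and 67.1 ± 1.37 FPKM in Col_0 (SD, n = 3). Nearest to BOA were POM1 (0.0475), CYP71A25 (0.0555) and JKD (0.0607). PRR7 was nearest to XTH30 (0.0631), NSP1 (0.0635) and AIRP2 (0.0728), and PRR5 to MLP28 (0.0632), the B-box gene BBX28 (0.0927) and EDA40 (0.101). XTH30 stood at 53.3 FPKM in hy5 and 30.1 FPKM in Col_0, against 1.69 FPKM in hy5 and 0.514 FPKM in Col_0 for PRR7 (means). ELF4 was nearest to E13L3 (0.0733), WAVH2 and the histone H2B gene HTB1 (both 0.0819).

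Of the growth and photoperiod genes placed downstream of the 10, 5 of 6 tested were called higher in hy5, against 11.7% of all tested genes. Because these lists were chosen with earlier results of these data known, that share is no independent support. PIF4, a growth-promoting factor repressed by the evening complex, stood at 5.53, 5.08 and 6.27 FPKM in hy5 4, 5 and 6, against 2.62, 2.93 and 1.76 FPKM in Col_0 1, 2 and 3. Every hy5 value was well above the Col_0 values (limma adjusted p = 0.000722, difference 0.96 on the log2 scale). Its relative PIF5 stood at 17.6, 18.2 and 20.4 FPKM in hy5 4, 5 and 6, against 15.5, 16.0 and 11.05 FPKM in Col_0 1, 2 and 3, and its narrower margin passed (limma adjusted p = 0.0436) except without hy5 4 (0.0719), hy5 5 (0.0842), hy5 6 (0.172) or Col_0 3 (0.0866), with no filter (0.0837) and with empirical Bayes without trend (0.0796). Of 6 photoperiod genes listed as downstream of GI and FKF1, 4 were tested, 3 were called higher and none lower. Whether GI or FKF1 acts on the levels of these transcripts was not tested. These were the Dof repressors of flowering CDF5, at 10.7 ± 1.61 FPKM in hy5 and 2.94 ± 1.004 FPKM in Col_0, CDF3, at 8.14 ± 0.286 FPKM in hy5 and 4.16 ± 0.628 FPKM in Col_0, and CDF2, at 23.7 ± 1.95 FPKM in hy5 and 15.9 ± 3.69 FPKM in Col_0 (SD, n = 3 each). CDF2 missed the threshold when hy5 4 (limma adjusted p = 0.0535) or hy5 6 (0.0617) was left out. CDF1 did not pass, CO was below the filter and FT was listed at 0 in all libraries. The blue-light F-box genes ZTL and LKP2, whose proteins bind GI, did not pass, and FKF1 was below the filter at 0.232 ± 0.132 FPKM in hy5 and 0.136 ± 0.0608 FPKM in Col_0 (SD, n = 3).

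On the morning side, which includes CCA1 and LHY, 3 of 11 tested genes were called lower and 1 higher, against 11.1% and 11.7% of all tested genes. The median log2 fold change was -0.23, against a median of 0.00 (rounded from -0.000940) over all genes tested. Whether PRR proteins act on these levels was not tested. LHY stood at 86.1, 80.8 and 80.9 FPKM in hy5 4, 5 and 6, against 158, 166 and 112 FPKM in Col_0 1, 2 and 3. The hy5 libraries were close together, and Col_0 3 was the lowest wild-type library but still above them (limma adjusted p = 0.00099). RVE8, an activator of evening genes, stood at 21.2, 17.2 and 24.4 FPKM in hy5 4, 5 and 6, against 31.3, 38.1 and 29.5 FPKM in Col_0 1, 2 and 3 (limma adjusted p = 0.00354). LNK2, a coactivator that works with RVE8, was at 24.6 ± 5.41 FPKM in hy5 and 39.7 ± 6.94 FPKM in Col_0 (SD, n = 3 each; limma adjusted p = 0.0167, and 0.0629 without Col_0 1). LNK1, the one called higher, passed the filter only through hy5 and Col_0 3 and was at 1.71 ± 0.142 FPKM in hy5 and 0.937 ± 0.0726 FPKM in Col_0 (limma adjusted p = 0.0205), a call lost without hy5 4 (0.101), hy5 6 (0.0706), Col_0 1 (0.053) or Col_0 2 (0.0538). CCA1 did not pass at 31.1 ± 2.21 FPKM in hy5 and 41.6 ± 10.05 FPKM in Col_0 (limma adjusted p = 0.102). Without Col_0 3, CCA1 (0.00187), RVE2 and RVE4 were called lower too.

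Among the other clock components few calls were made. Of 13 other regulators, all tested, the cold-regulated clock and light repressor COR28 was called higher, at 5.19 ± 0.955 FPKM in hy5 and 2.76 ± 0.551 FPKM in Col_0 (limma adjusted p = 0.0054), and the corepressor TPL, which works with PRR proteins, was called lower, at 60.6 ± 3.42 FPKM in hy5 and 81.7 ± 5.99 FPKM in Col_0 (limma adjusted p = 0.00414; SD, n = 3 each). The remaining 11, among them COR27 and CHE, did not pass, and neither did the clock-driven RNA-binding protein genes GRP7 and GRP8. PRMT5 was called lower under the 3 rescalings and without Col_0 3, and JMJD5 under upper quartile and quantile scaling and without Col_0 1. Over the 7 lists of other clock genes, 7 of 37 tested were called higher and 4 lower, with a median log2 fold change of 0.06, against 11.7% and 11.1% of all tested genes. The number called higher was 4 without hy5 4 and 4 without hy5 6, and the number called lower was 8 without Col_0 3.

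**Figure D5:**
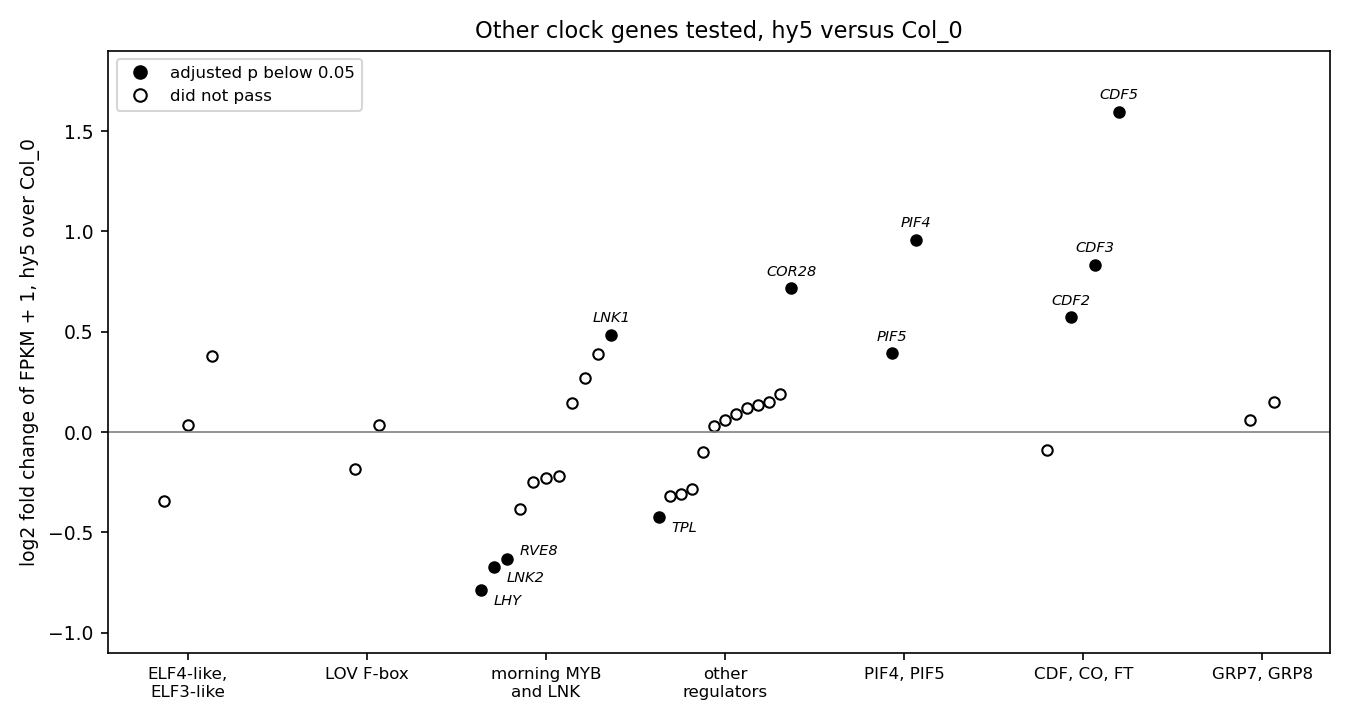
Log2 fold change of FPKM + 1, hy5 over Col_0, for the 37 tested genes of 7 other clock lists; filled points passed an adjusted p of 0.05 and are named. LHY, LNK2, RVE8 and TPL lie below 0, and CDF5 has the largest rise, with PIF4, CDF3, COR28, CDF2, LNK1 and PIF5 also above 0.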

How the data were processed

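RNA was extracted from seedlings with RNAiso Plus and sequenced, per the labels' protocols. The authors deposited 1 table of FPKM per library. Trimmomatic 0.36, HISAT2 2.2.1.0, Cufflinks, TopHat, Bowtie2, DESeq 1.18.0 and the build TAIR10 appear in the submitters' processing notes, with no role or order. Annotation, handling of shared reads, strand use and read depth: not given in the sources used here, so no counting interval could be made.

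Titles gave each library its genotype and number. Since no label ties the libraries to separate plantings, the spread behind the p-values is that among these libraries and may be technical. The clock genes and lists were chosen with earlier results of these data known. Testing used limma 3.58.1 in R 4.3.3 on log2(FPKM + 1), for genes reaching 1 FPKM in 3 or more libraries. Genotype was the sole term, with trended, robust empirical Bayes. The code was also run on simulated data. That simulation drew independent normal noise, shuffled the spreads across genes and used no filter, so it cannot vouch for the calls made here. Named were the 10 clock genes, HY5, HYH, up to 3 called genes per list with the smallest p, and 3 nearest genes per called clock gene. Root markers, LNK1, CCA1, other genes that missed the threshold, and genes overlapping or neighbouring a clock gene were named after their values were seen. RVE7 was not analysed here. Gene models and sequences came from the RefSeq TAIR10.1 genome by locus tag, since the tables hold no coordinates. Not every upstream sequence examined is reported here. Figures were drawn with matplotlib 3.10.9 in Python 3.11.15. Pseudocount, filter, scaling, empirical Bayes settings and each library in turn were varied.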

Additional observations from a re-analysis of the deposited data

How the results depend on the processing

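The calls of PRR5, LUX, BOA and ELF4 held under each alternative in which they were tested: pseudocounts of 0.1 and 5, no filter or a filter of 5 FPKM, median ratio, upper quartile and quantile scaling, empirical Bayes without trend and not robust, and each library left out. With a filter of 5 FPKM, 2 of the clock genes were called higher, since PRR5 and PRR7 were no longer tested. Leaving out 1 library at a time, 3 to 5 clock genes were called higher and 1 lower, 4 to 8 genes of the other clock lists were called higher and 4 to 8 lower, and over all genes 952 to 2059 were called higher and 1076 to 2250 lower. The log2 fold change of ELF3 ran from -0.065 (without Col_0 3) to 0.15 (without hy5 5) and was -0.036 without hy5 4, none of them called. The cause was not tested. With 1 FPKM added to both genes, the log2 ratio differences were -1.41 for ELF4 to LUX, -0.61 for TOC1 to PRR5 and 0.51 for GI to ELF3, since the added constant weighs on low genes. Rescaling left the median log2 fold change of all genes between -0.01 and 0.00. ELF4-L3 was called lower with empirical Bayes without trend. No paired analysis was possible because the library numbers of the 2 genotypes do not overlap. Levels under 1 FPKM (GI, PRR9, PRR7 in Col_0, and PRR3 in Col_0 1 and Col_0 3) rest on an unknown number of fragments.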
